A study of Mus musculus with 2 samples.

Results

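The genes described here are 6 histone genes of the mouse, *Hist1h1c*, *Hist1h1e*, *Hist1h1d*, *H1f0*, *Hist2h2ac* and *Hist1h2bc*, out of 32285 genes in the files. They were chosen by counts of unique molecular identifiers (UMIs) measured in these same libraries, so the values below are a description of them and carry no test. The files hold 103 histone gene symbols in all, of which 82 had a UMI, and the 6 genes took 13.94% of all histone UMIs.

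The data are 10x single-cell libraries of lung cells from 1 control and 1 *Gli1 HHIPCKO* mouse at day 14 after birth. Both mice carried *Gli1creERT/+* and *Hhipflox/flox*. The *Gli1 HHIPCKO* mouse was given tamoxifen and the control mouse oil. The Cre is expressed from *Gli1*, so recombination of *Hhip*, which encodes a hedgehog-binding protein, is limited to cells that expressed *Gli1* when tamoxifen was given, and epithelial cells are not its target. From each mouse, mesenchymal cells (negative for DAPI, CD31, CD45 and CD326) and epithelial cells (negative for DAPI, CD31 and CD45, positive for CD326) were sorted, mixed 3 to 1, and run as 1 lane. The comparison asks which transcripts differ between cells of a lung with and without stromal *Hhip* deletion. With 1 mouse per group there is no replicate error. All intervals are exact 95% intervals (Poisson for levels, binomial for ratios and shares), and they cover counting error only.

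Linker histones of the H1 family bind nucleosomes where DNA enters and leaves them and help to compact chromatin, while the core histones H2A, H2B, H3 and H4 form the nucleosome itself. Most core and H1 genes lie in gene clusters and are transcribed mainly in S phase. Their messenger RNAs end in a stem-loop in place of a poly(A) tail, so libraries primed with oligo-dT hold few of them, and what is counted is mostly the polyadenylated fraction. *H1f0* is different, since it lies alone, has a polyadenylated transcript and is known for its abundance in cells that have stopped dividing or have differentiated.

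The control library held 43291709 UMIs in 10999 cells (median 3531 per cell), and the *Gli1 HHIPCKO* library 52338969 UMIs in 12350 cells (median 3720). The libraries had 193 cell barcodes in common. *Hhip* was at 330.2 UMIs per 1000000 UMIs (CPM) in the control library and at 88.4 CPM in the *Gli1 HHIPCKO* library, as the labels say. The mice also differed in sex-linked genes, with 12 UMIs of *Xist* in the control library against 14084 in the other, and 1469 against 0 of *Ddx3y*, so sex and deletion cannot be told apart.

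After filtering, 10917 control and 12115 *Gli1 HHIPCKO* cells were clustered with all histone genes held out, and the clusters were named from marker genes. The names are written with "-like", and 12 classes were named. For each class, the UMIs of a gene were added up separately in each mouse and divided by all UMIs of the same cells. The log2 ratio is *Gli1 HHIPCKO* over control, so positive values are higher in the *Gli1 HHIPCKO* mouse. A ratio is counted as past the fold when it is at least 1.5-fold (0.585 on the log2 scale) with at least 50 UMIs of the gene over both libraries. The sort gates were set to remove CD45-positive and CD31-positive cells, yet 611 control and 240 *Gli1 HHIPCKO* immune-like cells and 121 and 93 endothelial-like cells were found, as well as 248 and 235 red cell-like cells.

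The 6 genes summed were higher in the *Gli1 HHIPCKO* library in each of the 12 classes, and the intervals of all 12 ratios lay above 0. The sum was past the fold in 10 classes, all except the immune-like and mesothelial-like cells, and its log2 ratio ran from 0.42 in immune-like cells to 1.26 in endothelial-like cells. The endothelial-like interval, 0.96 to 1.56 from 150 and 239 UMIs, covers the AT2-like ratio given below. In both of these end classes *Sftpc*, a surfactant gene, was the most abundant of all genes, and the part of free RNA in their ratios was not tested. The 10 include red cell-like cells at 0.72, where the median over all genes was itself 0.54. The genes did not share this difference evenly. *Hist1h1c*, *Hist2h2ac* and *Hist1h1e* were higher nearly everywhere they could be measured, and *H1f0* was higher by less outside the red cell-like and immune-like cells. *Hist1h1d* was higher in some classes and lower in another, and *Hist1h2bc* was near 0 in most classes.

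*Hist1h1c* encodes the linker histone H1.2. In AT2-like cells, the surfactant-producing cells of the alveolus (2976 control and 2798 *Gli1 HHIPCKO* cells), its level was 9.72 CPM (95% interval 8.19 to 11.5; 143 UMIs) in the control mouse and 46.9 CPM (43.7 to 50.3; 783 UMIs) in the *Gli1 HHIPCKO* mouse. In ALMF-like cells, the alveolar myofibroblasts (1637 and 1417 cells), it was 27.9 CPM in the control mouse and 78.8 CPM in the *Gli1 HHIPCKO* mouse. In DMF-like cells, the ductal myofibroblasts (1094 and 1207 cells), it was 25.8 CPM and 70.5 CPM. In the second round of clustering both myofibroblast classes are made of clusters that are nearly all of 1 library, which holds for each of their values below. The log2 ratios in these classes were 2.27 (2.01 to 2.54), 1.497 (1.22 to 1.78) and 1.45 (1.08 to 1.83), so the intervals of both libraries were far apart in each. Of the 12 classes, 11 had at least 50 UMIs of *Hist1h1c*, and it was past the fold upwards in all 11, with log2 ratios from 0.71 in immune-like to 2.27 in AT2-like cells. The 11 include red cell-like cells, where *Hist1h1c* was short of the fold within both clusters of the class, at 0.50 and 0.18. Shares of all measured genes past the fold are given class by class below, and since the 6 genes were chosen from this contrast nothing is read from the comparison with them.

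In the control library, AT2-like cells had the lowest level of *Hist1h1c* of the 12 classes. Red cell-like cells had the highest level, 168 CPM (147 to 191), followed by immune-like cells at 151 CPM (135 to 169), and these do not differ beyond their intervals. The red cell-like class holds 2 clusters, and in the one led by *Rhd* and *Rrm2* (33 of 248 control and 53 of 235 *Gli1 HHIPCKO* cells) the control level was 665 CPM, against 81.3 CPM in the one led by *Hba-a2*, so a few cells carry its levels of the clustered genes. Mesothelial-like cells stood at 45.7 CPM, and the 8 classes between them and the AT2-like cells lay from 25.8 to 33.7 CPM with overlapping intervals. In the *Gli1 HHIPCKO* library, red cell-like cells were at 299 CPM, immune-like cells at 247 CPM and AT2-like cells were again lowest. The order at both ends of the scale was therefore alike in the mice, while the ratio between them was smaller in the *Gli1 HHIPCKO* mouse.

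*Hist1h1e*, which encodes the linker histone H1.4, had the most UMIs of the 6 genes, 29015 over the named classes, on a scale where each UMI stands for 1 captured molecule whatever its length. In AT2-like cells it was at 134 CPM (128 to 140) in the control mouse and 371 CPM (362 to 380) in the *Gli1 HHIPCKO* mouse (log2 ratio 1.47, 1.39 to 1.54). In ALMF-like cells it was at 296 and 627 CPM (log2 ratio 1.08, 1.00 to 1.17). In DMF-like cells it was at 263 and 657 CPM (log2 ratio 1.32, 1.20 to 1.44). It was past the fold upwards in 11 of 12 classes, and the interval of the remaining one, immune-like cells at 0.32 (0.22 to 0.43), also lay above 0. The 11 include red cell-like cells at 0.63, close to the median of 0.54 over all genes there. The highest ratio was that of endothelial-like cells, 1.61 (1.21 to 2.03), from 75 and 153 UMIs.

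Immune-like cells had the highest control level of *Hist1h1e*, 1117 CPM (1072 to 1163), and red cell-like cells stood next at 889 CPM (840 to 940). ALMF-like, endothelial-like and DMF-like cells followed at 296, 268 and 263 CPM, and the endothelial-like interval of 211 to 336 CPM covers both neighbours. Alveolar fibroblast-like cells at 137 CPM and AT2-like cells at 134 CPM were lowest and do not differ beyond their intervals. In the *Gli1 HHIPCKO* library, the immune-like and red cell-like levels of 1396 and 1377 CPM overlap, and adventitial fibroblast-like cells were lowest at 322 CPM (302 to 344).

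*Hist1h1d* encodes the linker histone H1.3 and was the rarest H1 gene of the group, with 1729 UMIs over the named classes. Most of it was in immune-like cells, at 187 CPM (169 to 206) in the control mouse and 213 CPM (182 to 248) in the *Gli1 HHIPCKO* mouse, and in red cell-like cells, at 192 CPM (170 to 217) and 265 CPM (239 to 292). Within both red cell-like clusters it was lower in *Gli1 HHIPCKO*, at 17.8 and 14.3 CPM (−0.32, −1.38 to 0.71) and at 1199 and 883 CPM (−0.44, −0.68 to −0.20), and the class value also reflects the larger share of the second of these in that library. In the immune-like cluster led by *Cd79a*, *Hist1h1d* was at 256 and 299 CPM (0.23, −0.06 to 0.51). In the immune-like cluster led by *Ccl4* it was at 97.4 and 56.6 CPM (−0.78, −1.65 to −0.01), from 90 and 16 UMIs. Outside the immune-like and red cell-like classes, only AT2-like and mesothelial-like cells reached 50 UMIs. AT2-like cells had 79 and 219 UMIs, 5.37 CPM in the control mouse and 13.1 CPM in the *Gli1 HHIPCKO* mouse (log2 ratio 1.29, 0.91 to 1.68). Mesothelial-like cells had 36 and 14 UMIs, 31.6 and 15.8 CPM (log2 ratio −1.01, −2.01 to −0.08). *Hist1h1d* was therefore past the fold upwards in 1 class and downwards in 1 class of the 4 with enough UMIs. With no minimum, it was higher in 11 of 12 classes, with 5 intervals above 0, and lower in 1, with its interval below 0. Over all kept cells *Hist1h1d* stood at 19.6 CPM in the control and 19.8 CPM in the other library. In ALMF-like cells 12 and 32 UMIs were counted and in DMF-like cells 7 and 29, too few for the fold to be counted, and endothelial-like cells of the control held 0 UMIs, which allows a level of up to 13.2 CPM.

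*H1f0* encodes the replication-independent linker histone H1.0. It was the second most abundant of the 6 genes by UMIs, 20179 over the named classes. In AT2-like cells it was at 179 CPM (173 to 186) in the control mouse and 361 CPM (351 to 370) in the *Gli1 HHIPCKO* mouse (log2 ratio 1.01, 0.94 to 1.07). In ALMF-like cells it was at 257 and 467 CPM (log2 ratio 0.86, 0.77 to 0.96), and in DMF-like cells at 296 and 412 CPM (log2 ratio 0.47, 0.36 to 0.59). *H1f0* was past the fold upwards in 5 of 12 classes, and 10 of the 12 intervals lay above 0. The exceptions were alveolar fibroblast-like cells, at 0.19 (−0.02 to 0.40), and endothelial-like cells, at 0.51 (−0.04 to 1.06).

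The order of classes for *H1f0* differed from that for the other linker genes. DMF-like cells were highest in control, at 296 CPM (277 to 316), followed by the peribronchial fibroblast and airway smooth muscle-like cells at 286 CPM (247 to 330), whose interval overlaps. Ciliated-like cells were next to lowest at 91.9 CPM, and red cell-like cells lowest at 33.2 CPM (24.3 to 44.3; 46 UMIs). In the *Gli1 HHIPCKO* library, ALMF-like cells were highest at 467 CPM (448 to 487) and red cell-like cells again lowest at 123 CPM (106 to 143; 182 UMIs). The red cell-like cells nevertheless had the highest ratio of *H1f0*, 1.89 (1.42 to 2.39). In that class the median log2 ratio over all genes was 0.54, and its ratios are given beside that value. Haemoglobin genes took 58.3% of its UMIs in control and 45.5% in *Gli1 HHIPCKO*, and the share of its cells in the cluster led by *Rhd* differed too. The part of either was not tested. *H1f0*, *Hist2h2ac* at 1.75 and *Hist1h1c* at 0.83 stood above the median of the class, *Hist1h1e* at 0.63 was close to it, and *Hist1h1d* at 0.46 and *Hist1h2bc* at 0.42 were below it. Within the clusters of the class *Hist1h1c* was at 0.50 and 0.18.

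*Hist2h2ac* encodes a core histone H2A and lies outside the large cluster on chromosome 13. In AT2-like cells it was at 5.57 CPM (4.43 to 6.92; 82 UMIs) in the control mouse and 32.7 CPM (30.0 to 35.6; 546 UMIs) in the *Gli1 HHIPCKO* mouse (log2 ratio 2.55, 2.22 to 2.91). In ALMF-like cells it was at 7.89 and 34.1 CPM (log2 ratio 2.11, 1.61 to 2.64). In DMF-like cells it was at 7.94 and 29.3 CPM (log2 ratio 1.88, 1.24 to 2.58). *Hist2h2ac* reached 50 UMIs in 7 classes and was past the fold upwards in those, from 1.54 in immune-like to 3.03 in adventitial fibroblast-like cells. The last value rests on 9 and 69 UMIs and has an interval of 2.02 to 4.21. The minimum sums both libraries, so a class can reach it by its *Gli1 HHIPCKO* UMIs alone. With no minimum, *Hist2h2ac* was higher in 12 of 12 classes, with 10 intervals above 0.

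Immune-like cells at 49.6 CPM (40.6 to 60.1) and red cell-like cells at 41.2 CPM (31.2 to 53.3) had the highest control levels of *Hist2h2ac*, with overlapping intervals, and no other class was above 10.5 CPM. Of the 57 red cell-like UMIs, 54 were from the 33 cells of the cluster led by *Rhd* (264 CPM), and the other cells of the class were at 2.54 CPM. In the *Gli1 HHIPCKO* library, these 2 classes were at 144 and 138 CPM. ALMF-like, AT2-like and DMF-like cells came next, at 34.1, 32.7 and 29.3 CPM, and their intervals overlap. The other classes lay between 9.78 CPM in alveolar fibroblast-like cells and 28.6 CPM in pericyte-like cells.

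*Hist1h2bc* encodes a core histone H2B, and it differed from the other 5 genes both in where it was found and in how the mice compared. In AT2-like cells it was at 23.1 CPM (20.7 to 25.7; 340 UMIs) in the control mouse and 22.4 CPM (20.2 to 24.8; 374 UMIs) in the *Gli1 HHIPCKO* mouse (log2 ratio −0.04, −0.26 to 0.17). In ALMF-like cells it was at 25.2 and 24.7 CPM (log2 ratio −0.03, −0.40 to 0.34). In DMF-like cells it was at 23.8 and 25.6 CPM (log2 ratio 0.11, −0.35 to 0.57). A difference in *Hist1h2bc* was thus not detectable at this depth in these classes, where the intervals leave no room for the ratios of *Hist1h1c* or *Hist2h2ac*. Of the 10 classes with at least 50 UMIs it was past the fold upwards in 0 and downwards in 1, the mesothelial-like cells, where it was at 148 CPM in the control mouse and 76.5 CPM in the *Gli1 HHIPCKO* mouse (log2 ratio −0.95, −1.38 to −0.53). The alveolar fibroblast-like ratio of −0.31 (−0.58 to −0.04) also had an interval below 0, and the red cell-like ratio of 0.42 one above 0.

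The highest control levels of *Hist1h2bc* were those of ciliated-like cells, 160.0 CPM (138 to 185), and mesothelial-like cells, 148 CPM (126 to 172), with overlapping intervals. Immune-like cells at 113 CPM and alveolar fibroblast-like cells at 103 CPM followed and overlap as well. AT2-like, ALMF-like, DMF-like, pericyte-like and endothelial-like cells were lowest, between 19.4 and 25.2 CPM. In the *Gli1 HHIPCKO* library ciliated-like cells were again highest, at 174 CPM (143 to 209). The interval of mesothelial-like cells, at 76.5 CPM (59.4 to 97.0), overlapped those of the immune-like, alveolar fibroblast-like and red cell-like cells.

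**Figure D1:**
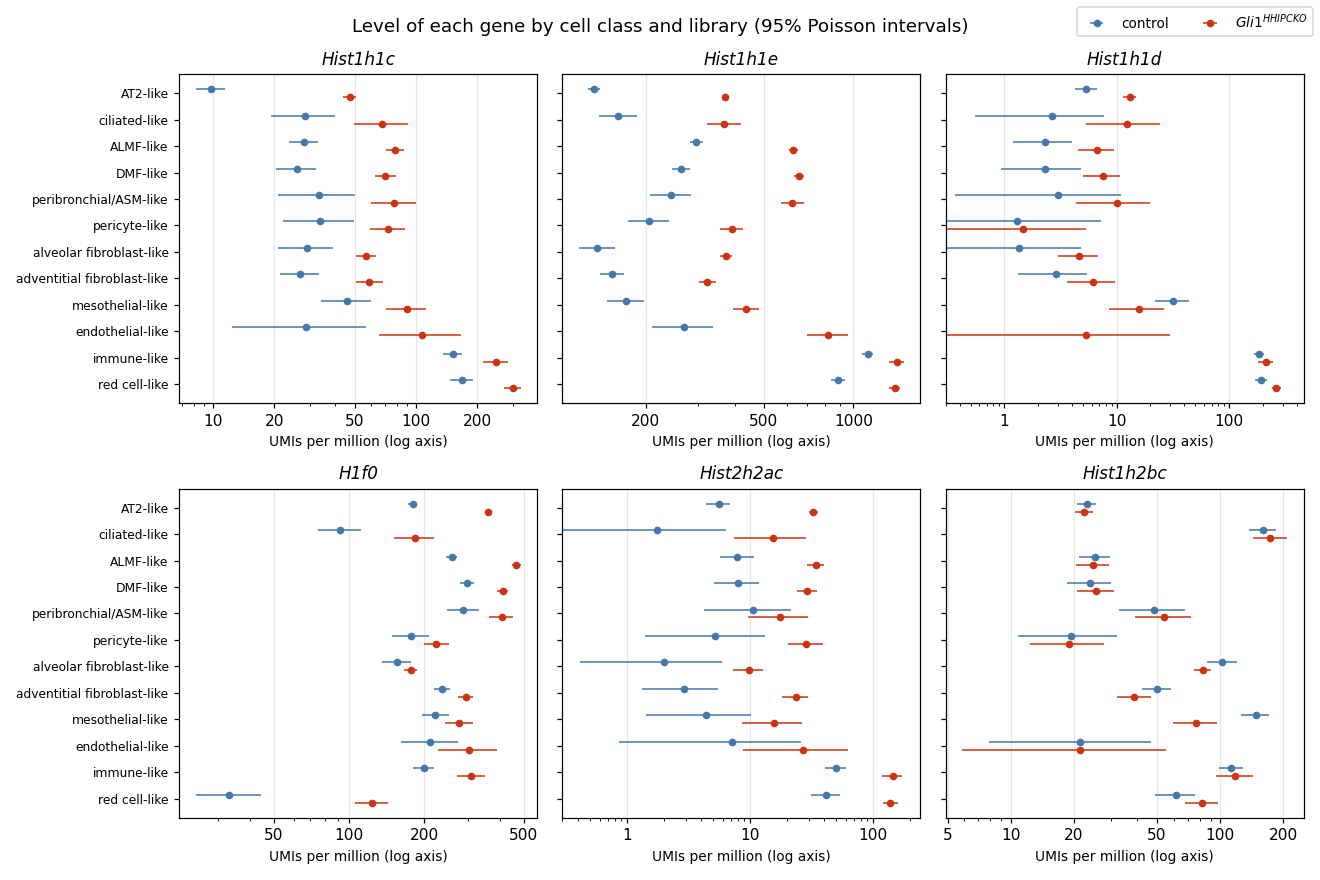
Level of each of the 6 genes in UMIs per 1000000 on a log axis, by cell class, in the control library and the *Gli1 HHIPCKO* library; points are class sums and lines are exact 95% Poisson intervals. *Hist1h1c*, *Hist1h1e* and *Hist2h2ac* sit to the right in the *Gli1 HHIPCKO* library in nearly every class, *H1f0* is lowest in red cell-like cells, and the *Hist1h2bc* points of both libraries overlap in most classes.

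In AT2-like cells, 5 of the 6 genes were past the fold upwards (*Hist1h1c*, *Hist2h2ac*, *Hist1h1e*, *Hist1h1d* and *H1f0*), beside 5.39% of 10979 measured genes (4.49% downwards). The 6 genes summed were at 357 CPM (348 to 367) in the control mouse and 846 CPM (832 to 860) in the *Gli1 HHIPCKO* mouse (log2 ratio 1.24, 1.20 to 1.29). The median log2 ratio over all measured genes in these cells was 0.01. The sum differed alike in both large groups of AT2-like cells. In the cluster led by *Lcn2*, *Lyz1* and *Chil1* (1823 and 2460 cells) it was at 364 and 851 CPM (log2 ratio 1.23, 1.17 to 1.28). In the cluster led by *Scgb1a1*, *Sftpc* and *Ager* (1153 and 338 cells) it was at 342 and 789 CPM (log2 ratio 1.21, 1.09 to 1.32).

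Several other measures moved with the AT2-like result. Median UMIs per cell were 4812 in control and 5720 in *Gli1 HHIPCKO*, the median mitochondrial share was 0.741% and 0.802%, and ribosomal protein genes took 7.21% and 9.13% of UMIs. Of the 16 immediate early genes, which respond within minutes to stress and to cell handling, 9 were past the fold upwards and 0 downwards, with a median log2 ratio of 0.62 and a summed level of 6933 and 10180 CPM (*Jund* most abundant). With each cell thinned to 2000 UMIs, the log2 ratio of the 6 genes summed was 1.24, and with mitochondrial and ribosomal protein genes left out of the total it was 1.28. The part of the immediate early genes in the result was not tested.

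In ALMF-like cells, 5 of the 6 genes had at least 50 UMIs and 4 of them were past the fold upwards (*Hist1h1c*, *Hist2h2ac*, *Hist1h1e* and *H1f0*), beside 7.89% of 10356 measured genes (6.93% downwards). The 6 genes summed were at 616 CPM (595 to 638) in the control mouse and 1239 CPM (1207 to 1270) in the *Gli1 HHIPCKO* mouse (log2 ratio 1.01, 0.95 to 1.07). In the second round of clustering these cells came almost wholly from clusters of 1 library each. A cluster led by *Stc1*, *Bmp2* and *Ubash3b* held 1612 control and 62 *Gli1 HHIPCKO* cells, and one led by *Lnx1*, *Chp2* and *Nnat* held 26 and 1357. In the first round only 381 *Gli1 HHIPCKO* cells were named ALMF-like, so most of the 1357 were not. A first-round cluster led by *Igf1*, *Thbs2* and *P4ha3*, named DMF-like, held 23 control and 2233 *Gli1 HHIPCKO* cells. In a cluster of the first round led by *Stc1* and *Agt*, with 1417 and 381 cells, the sum was at 617 and 1311 CPM (log2 ratio 1.09, 1.00 to 1.18). Over all ALMF-like cells 14 of 16 immediate early genes were past the fold upwards, with a median log2 ratio of 1.02. Their summed level was 8091 and 15200 CPM (*Jun* most abundant), and their part in the histone result was not tested.

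In DMF-like cells, 5 of the 6 genes were measured and 3 of them were past the fold upwards (*Hist1h1c*, *Hist2h2ac* and *Hist1h1e*), beside 7.84% of 9812 measured genes (6.80% downwards). The 6 genes summed were at 619 CPM (591 to 648) in the control mouse and 1201 CPM (1167 to 1236) in the *Gli1 HHIPCKO* mouse (log2 ratio 0.96, 0.88 to 1.03). Here too the clusters of the second round were nearly of 1 library each, with 1092 control and 23 *Gli1 HHIPCKO* cells in one led by *Hhip* and 13 and 1213 in one led by *Ace*. Most of the immediate early genes were past the fold in neither direction in this class. Of the 16, 1 was past the fold upwards (*Ier3*) and 4 downwards, with a median log2 ratio of −0.13 and a summed level of 8577 CPM in the control mouse and 7689 CPM in the *Gli1 HHIPCKO* mouse (*Jun* most abundant). Their part in the histone result was not tested in this class either. Median UMIs per DMF-like cell were 2618 in control and 3007 in *Gli1 HHIPCKO*. The median mitochondrial share was 0.404% and 0.717%, and ribosomal protein genes took 5.76% and 6.61% of UMIs. The median mitochondrial share was also higher in *Gli1 HHIPCKO* in each other class.

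**Figure D2:**
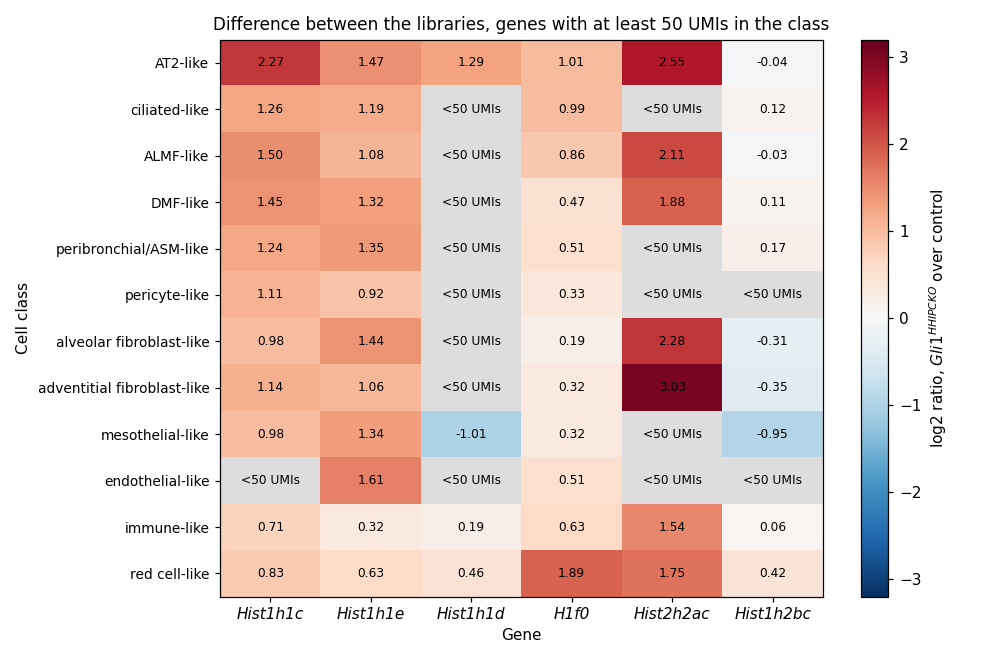
Log2 ratio of *Gli1 HHIPCKO* over control for each of the 6 genes (columns) in each cell class (rows), with grey for genes with fewer than 50 UMIs in the class. The *Hist1h1c* column is above 0 throughout its measured classes, *Hist2h2ac* holds the highest value (3.03, adventitial fibroblast-like cells), and *Hist1h2bc* in mesothelial-like cells (−0.95) and *Hist1h1d* in the same cells (−1.01) hold the lowest.

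The remaining stromal classes also had more *Hist1h1c* and *Hist1h1e* in the *Gli1 HHIPCKO* library. In alveolar fibroblast-like cells (471 and 1609 cells) the 6 genes summed were at 427 CPM in the control mouse and 703 CPM in the *Gli1 HHIPCKO* mouse (log2 ratio 0.72, 0.60 to 0.84). There *Hist1h1e* was at 1.44 and *H1f0* at 0.19. *Hist2h2ac* was at 2.28, with a UMI in only 3 control cells against 52 *Gli1 HHIPCKO* cells. In adventitial fibroblast-like cells (797 and 817 cells) the sum was at 472 and 743 CPM (log2 ratio 0.66, 0.56 to 0.75). In peribronchial fibroblast and airway smooth muscle-like cells (176 and 242 cells) it was at 624 and 1189 CPM (log2 ratio 0.93, 0.76 to 1.10), and in pericyte-like cells (434 and 729 cells) at 443 and 734 CPM (log2 ratio 0.73, 0.55 to 0.91). *Hist1h1c* and *Hist1h1e* were both past the fold upwards in each of these 4 classes, joined by *Hist2h2ac* in the alveolar and adventitial fibroblast-like cells. In both of these *Hist2h2ac* reached the minimum mostly by its *Gli1 HHIPCKO* UMIs, so its passing the fold there follows in large part from the minimum. The shares of all measured genes past the fold were 7.53% upwards and 8.18% downwards in alveolar fibroblast-like, 7.68% and 6.01% in adventitial fibroblast-like, 9.75% and 7.58% in peribronchial fibroblast and airway smooth muscle-like, and 7.67% and 4.52% in pericyte-like cells. Of the immediate early genes, 9 of 13 measured were past the fold upwards in pericyte-like cells (median 0.89, summed level 1819 and 2847 CPM), and 7 of 16 upwards and 1 downwards in alveolar fibroblast-like cells (median 0.55, 2865 and 3596 CPM), *Dusp1* most abundant in both. In adventitial fibroblast-like cells 2 of 16 were past it upwards and 2 downwards (median 0.28, 8354 and 8812 CPM), and likewise 2 and 2 of 16 in peribronchial fibroblast and airway smooth muscle-like cells (median 0.21, 11220 and 12180 CPM), *Jun* most abundant in both. Their part was not tested in these classes. In pericyte-like cells haemoglobin genes took 0.0814% of UMIs in control and 1.48% in *Gli1 HHIPCKO*, and their part was not tested either.

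Ciliated-like cells (257 and 127 cells) are epithelial, like AT2-like cells. Their sum was 446 CPM (408 to 487) in the control mouse and 820 CPM (752 to 893) in the *Gli1 HHIPCKO* mouse (log2 ratio 0.88, 0.70 to 1.06), with *Hist1h1c* at 1.26, *Hist1h1e* at 1.19 and *H1f0* at 0.99. These 3 were past the fold upwards of 4 measured, beside 5.56% of all measured genes (5.43% downwards). Of the 16 immediate early genes, 9 were past the fold upwards in ciliated-like cells and 0 downwards, with a median log2 ratio of 0.64 and a summed level of 6237 and 9589 CPM (*Jund* most abundant), and their part in the result was not tested. Endothelial-like cells had a sum of 537 and 1283 CPM, from 150 and 239 UMIs, and *Hist1h1e* was past the fold upwards of 2 genes measured, beside 12.2% of all measured genes (7.26% downwards). There 0 of 15 immediate early genes were past the fold upwards and 3 downwards (median −0.26, 6946 and 5652 CPM, *Jun* most abundant). Immune-like cells had the smallest ratio of the sum from the highest levels, 1816 CPM (1759 to 1874) in the control mouse and 2426 CPM (2319 to 2536) in the *Gli1 HHIPCKO* mouse. There *Hist1h1c*, *Hist2h2ac* and *H1f0* were past the fold upwards, 3 of 6, beside 7.87% of all measured genes (7.70% downwards). In red cell-like cells *Hist1h1c*, *Hist2h2ac*, *Hist1h1e* and *H1f0* were, 4 of 6, beside 45.7% of all measured genes (2.48% downwards). Within the red cell-like clusters led by *Hba-a2* and by *Rhd*, *Hist1h1c* was at 0.50 and 0.18 and *Hist1h1e* at 0.54 and −0.21, short of the fold, and the second cluster was 33 of 248 and 53 of 235 cells. The immediate early genes were 2 upwards and 2 downwards of 16 in immune-like cells (median 0.22, 9630 and 10520 CPM) and 9 upwards and 0 downwards of 16 in red cell-like cells (median 0.65, 2410 and 3537 CPM), *Jund* most abundant in both. Their part was not tested in these 3 classes.

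Among the named classes, only mesothelial-like cells (299 and 294 cells) had genes of the 6 past the fold in both directions. The sum was at 622 CPM (577 to 670) in the control mouse and 909 CPM (847 to 974) in the *Gli1 HHIPCKO* mouse (log2 ratio 0.55, 0.40 to 0.69). *Hist1h1e*, at 171 and 435 CPM, had a log2 ratio of 1.34 (1.09 to 1.60), and *Hist1h1c* one of 0.98 (0.46 to 1.51), while *Hist1h1d* and *Hist1h2bc* were past the fold downwards, so 2 of 5 measured were up and 2 down, beside 8.79% and 7.41% of all measured genes. In these cells all 6 measured genes of the 10 proliferation genes were also past the fold downwards, with a median log2 ratio of −2.40 and a summed level of 511 CPM in the control mouse and 92.2 CPM in the *Gli1 HHIPCKO* mouse (*Ube2c* most abundant). Of the 16 immediate early genes, 6 were past the fold upwards and 1 downwards (median 0.43, summed level 5673 and 8385 CPM, *Fos* most abundant). The part of proliferation and of the immediate early genes in the result was not tested.

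Over all kept cells, the 6 genes summed were at 551 CPM (544 to 558) in the control mouse and 966 CPM (958 to 975) in the *Gli1 HHIPCKO* mouse (log2 ratio 0.81, 0.79 to 0.83). Of the 6 genes, 4 were past the fold upwards (*Hist1h1c*, *Hist2h2ac*, *Hist1h1e* and *H1f0*), beside 6.09% of 15095 measured genes (10.6% downwards). *Hist1h2bc*, at 43.0 and 39.8 CPM, had a log2 ratio of −0.11 (−0.20 to −0.02). Cells of clusters without a name (1796 and 2307 cells) had 5 of the 6 genes past the fold upwards, all but *Hist1h2bc*, beside 5.57% of all measured genes (5.36% downwards). One such cluster, cluster 8, led by *Acta2*, *Prss23* and *Map3k7cl* (405 and 430 cells), had *Hist1h1c*, *Hist1h2bc*, *Hist1h1e* and *H1f0* past it, 4 of 4 measured, beside 8.07% (5.34% downwards). The whole-library values mix classes whose numbers of cells differed between the mice, such as the immune-like cells with their high histone levels.

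The clusters beneath the classes were compared in the same way. Among 28 clusters of the first round with at least 20 cells of each library, the 6 genes summed were higher in *Gli1 HHIPCKO* in 26 and by at least 1.5-fold in 23, with a median log2 ratio of 0.90. With no minimum of UMIs, *Hist1h1c* was higher in 27 of the 28 clusters, with 17 intervals above 0, and *Hist2h2ac* in 26, with 16 intervals above 0. *Hist2h2ac* was lower in the immune-like cluster led by *Ccl4* (29 and 6 UMIs, log2 ratio −0.56, −2.12 to 0.73). *Hist1h2bc* was higher in 15 of 28, with 2 intervals above 0, and lower in 13, with 5 intervals below 0. The pair of clusters in which the sum was not higher were a red cell-like cluster led by *Rhd*, *Rrm2* and *Hist1h1b* (33 and 53 cells; 6615 and 6050 CPM, −0.13, −0.22 to −0.03) and an immune-like cluster led by *Ccl4* and *Ccl3* (188 and 59 cells; 1112 and 1076 CPM, −0.05, −0.24 to 0.14). In the first of these, which had the highest summed level and the lowest *H1f0* of all clusters, *Hist1h1e* was at 4257 CPM in the control mouse and 3672 CPM in the *Gli1 HHIPCKO* mouse, *Hist1h1d* at 1199 and 883 CPM, and *H1f0* at 14.7 and 89.2 CPM.

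Shares of cells with a UMI were compared as well, from whatever source the UMI came. With each cell thinned to 2000 UMIs and shallower cells left out, a *Hist1h1c* UMI was found in 1.86% (1.39% to 2.42%) of 2854 control AT2-like cells and in 9.56% (8.48% to 10.7%) of 2730 *Gli1 HHIPCKO* AT2-like cells. In ALMF-like cells the thinned share was 5.28% and 14.1%, and in DMF-like cells 4.82% and 11.9%. For *Hist1h1e* in AT2-like cells the thinned share was 22.0% and 47.1%, and for *H1f0* 26.9% and 44.2%. The share for *Hist1h2bc* in AT2-like cells was 4.06% (3.37% to 4.86%) and 4.25% (3.52% to 5.08%), which is no detectable difference.

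No class of these libraries can be assumed to lack histone transcripts, and free RNA was neither measured nor removed, so all of these shares include an unknown part of it. The lowest thinned share of a gene in any class was taken as an upper bound of that part, though cells of different depth may hold different amounts, with endothelial-like and ciliated-like cells left out because thinning left 20 and 99 such cells in *Gli1 HHIPCKO*. For *H1f0* it was that of red cell-like cells, 3.00% (1.22% to 6.09%) in control and 15.1% (10.6% to 20.5%) in *Gli1 HHIPCKO*. For *Hist2h2ac* it was that of alveolar fibroblast-like cells, 0.28% (0.01% to 1.55%) and 1.11% (0.61% to 1.85%), and for *Hist1h1d* that of pericyte-like cells, 0% (up to 2.17%) and 0.34% (0.01% to 1.89%). The AT2-like shares lay beyond these intervals for *H1f0* in both libraries and for *Hist2h2ac* in *Gli1 HHIPCKO* (6.04%, 5.18% to 7.00%). They overlapped for *Hist2h2ac* in control (0.91%, 0.60% to 1.33%) and for *Hist1h1d* in both (0.95%, 0.62% to 1.37%, and 2.27%, 1.75% to 2.90%). For *Hist1h1c*, *Hist1h1e* and *Hist1h2bc* the lowest shares were those of AT2-like cells or near them, such as 20.7% of control mesothelial-like cells and 42.2% of *Gli1 HHIPCKO* adventitial fibroblast-like cells for *Hist1h1e*, so the bound says little about their shares.

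The make-up of the linker histone pool, meaning all UMIs of the 11 H1 genes, differed between some classes and was alike in others. Control ALMF-like and pericyte-like cells were alike, with *Hist1h1e* at 44.4% in both and *H1f0* at 38.6% and 38.3%. In control AT2-like cells *H1f0* made up 53.0% (51.6% to 54.4%) of it, *Hist1h1e* 39.6%, *Hist1h1c* 2.87% and *Hist1h1d* 1.59%. In *Gli1 HHIPCKO* AT2-like cells *H1f0* made up 44.5% (43.6% to 45.3%), *Hist1h1e* 45.7%, *Hist1h1c* 5.79% and *Hist1h1d* 1.62%. The pool as a whole was larger, 338 CPM in the control mouse and 811 CPM in the *Gli1 HHIPCKO* mouse, so a larger part of a larger pool was *Hist1h1e* and *Hist1h1c*. In DMF-like cells the share of *H1f0* went from 44.8% (control) to 32.7% (*Gli1 HHIPCKO*), and that of *Hist1h1e* 39.8% and 52.2%. In ALMF-like cells these shares were closer between the mice, 38.6% and 35.7% for *H1f0* and 44.4% and 47.9% for *Hist1h1e*.

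Immune-like and red cell-like cells had another mix. *H1f0* made up 7.46% of the immune-like pool of the control mouse and 9.60% of that of the *Gli1 HHIPCKO* mouse, and 1.72% and 4.07% of the red cell-like pool. *Hist1h1b*, the linker histone H1.5 and one of the 10 most abundant other histone genes, made up 25.3% and 21.2% of the immune-like pool. In mesothelial-like cells *Hist1h1b* made up 19.8% of the pool in control and 5.62% in *Gli1 HHIPCKO*, while the share of *Hist1h1e* was 46.3% in *Gli1 HHIPCKO*, against an interval of 22.0% to 28.2% for the control.

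Whether the 6 genes follow DNA replication in these libraries was looked at within the immune-like clusters, one led by *Cd79a* and one led by *Ccl4*. Cells with UMIs of at least 3 of 20 S-phase genes were set against cells with none, with each cell thinned to 2000 UMIs because S-phase cells were deeper (median 6134 against 1514 UMIs in control immune-like cells). In the control cells of the *Cd79a* cluster, 59 without and 71 with S-phase UMIs, *Hist1h1e* was at 441 and 2796 CPM (log2 ratio 2.67, 2.25 to 3.11) and *Hist1h1d* at 59.3 and 479 CPM (log2 ratio 3.01, 1.89 to 4.38). *Hist1h1c* was at 1.47 (0.51 to 2.54), *Hist2h2ac* at 4.19 (1.56 to 9.56) from 1 and 22 UMIs, and *H1f0* at −1.31 (−2.31 to −0.38). With all UMIs counted, in 196 and 100 cells, the interval of *H1f0* covered 0 (−0.25, −0.74 to 0.25).

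In the control cells of the *Ccl4* cluster, 60 without and 27 with S-phase UMIs, *Hist1h1e* was at 2.04 (1.40 to 2.70) and *Hist1h1d* at 2.89 (0.93 to 5.39), from 3 and 10 UMIs. *H1f0* was at 0.00 (−1.32 to 1.20) and *Hist1h1c* at −0.79 (−2.37 to 0.55). With all UMIs counted, in 94 and 51 cells, *H1f0* was at 0.85 (0.27 to 1.47) and *Hist1h1c* at −1.55 (−2.24 to −0.87). The intervals of *Hist1h2bc* covered 0 at both depths, at −0.43 (−3.77 to 2.05) thinned and −0.62 (−1.43 to 0.22) with all UMIs. *Hist1h1e* and *Hist1h1d* were thus higher with S-phase UMIs in both clusters at either depth. For *Hist1h1c* and *H1f0* the intervals of the clusters lay apart with all UMIs counted and overlapped with cells thinned. The difference between the clusters was not tested. In *Gli1 HHIPCKO*, thinning left fewer than 20 cells with S-phase UMIs in each cluster. With all UMIs counted, the *Cd79a* cluster (101 and 24 cells) had *Hist1h1e* at 2.06 (1.81 to 2.31), *Hist1h1d* at 3.51 (2.65 to 4.50), *Hist1h1c* at 1.34 (0.81 to 1.90), *Hist1h2bc* at 1.47 (0.71 to 2.29) and *H1f0* at −0.96 (−1.60 to −0.35). Red cell-like cells gave no such comparison. Of their cells with S-phase UMIs, 26 of 32 in control and 44 of 45 in *Gli1 HHIPCKO* were in the cluster led by *Rhd*, and of those without, 161 of 163 and 137 of 140 were in the other cluster.

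**Figure D3:**
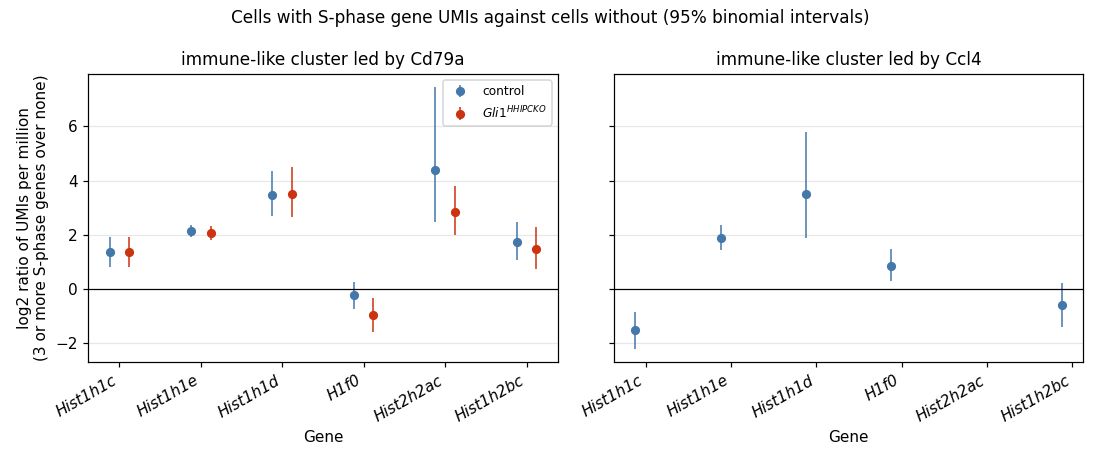
Log2 ratio of UMIs per 1000000 in cells with UMIs of 3 or more S-phase genes over cells with none, for each of the 6 genes, in the immune-like cluster led by *Cd79a* in each library and in the one led by *Ccl4* in the control library, with all UMIs counted and 95% binomial intervals. *Hist1h1e* and *Hist1h1d* are above 0 in both clusters and *Hist1h1c* is above 0 in the first and below 0 in the second; *Hist2h2ac* has no point in the second, where cells without S-phase UMIs held none of it, and S-phase cells were deeper.

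In AT2-like cells, with all UMIs counted, the sum of the 6 genes was at 363 CPM in 1922 control cells without S-phase UMIs and 312 CPM in 63 cells with them (log2 ratio −0.22, −0.48 to 0.03). In *Gli1 HHIPCKO* it was at 844 and 909 CPM in 1723 and 44 cells (log2 ratio 0.11, −0.06 to 0.27). The sum hides genes that differed in the control cells, *Hist1h1d* at 2.04 (0.63 to 3.23) from 36 and 7 UMIs and *Hist1h2bc* at −1.39 (−3.28 to −0.01) from 222 and 4 UMIs. These values are not thinned, and cells with S-phase UMIs were deeper (median 6282 against 4641 UMIs in control, 7026 against 5471 in *Gli1 HHIPCKO*). The rule of 3 genes may not pick S-phase cells here. By it *Hist1h2ae* was at −0.43 (−2.33 to 0.97) in control AT2-like cells, against 5.05 in control immune-like cells, though *H2afz* was at 0.84 in the former. These values therefore cannot show whether the 6 genes follow replication in AT2-like cells. Between the mice, 0 of the 13 S-phase genes measured in AT2-like cells were past the fold upwards and 4 downwards (*Mcm2*, *Mcm3*, *Mcm5* and *Rrm1*), with a median log2 ratio of −0.39 and a summed level of 106 and 88.2 CPM (*Pcna* most abundant). Leaving out all cells with a UMI of a proliferation gene gave a log2 ratio of the sum of 1.26 in AT2-like, 1.03 (ALMF-like) and 0.94 (DMF-like cells).

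The S-phase and proliferation genes of the myofibroblast classes are given beside their histone values. In ALMF-like cells 0 of 8 measured S-phase genes were past the fold in either direction, with a summed level of 153 and 158 CPM, and in DMF-like cells 2 of 7 upwards (*Mcm3* and *Mcm6*), with 149 and 154 CPM (*Mcm4* most abundant in both). Of the proliferation genes, 1 was measured in each of these classes, *Mki67*, with log2 ratio −1.61 for ALMF-like cells and −2.00 for DMF-like cells, and 1 in AT2-like cells, *Prc1*, at −0.80 (−1.21 to −0.40), with a summed level of the list of 11.8 and 6.47 CPM there. The part of the S-phase genes in the result was not tested.

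A list of 22 histone supply genes holds factors that transcribe, process or deposit histones. In AT2-like cells 2 of 21 measured genes were past the fold upwards, beside 5.39% of all measured genes, *Hinfp* at 0.86 (0.25 to 1.497) and *Pou2f1* at 0.61 (0.20 to 1.03), which encode transcription factors of histone genes, and 0 downwards, with a median of 0.15 and a summed level of 548 and 587 CPM (*Atrx* most abundant). In ALMF-like cells 0 of 19 were past the fold. In DMF-like cells 2 of 16 were, beside 7.84% of all measured genes, *Npat*, the coactivator of clustered histone genes, at 0.63 (0.13 to 1.15), and *Hira*, a chaperone of replication-independent H3. *Slbp*, which binds the stem-loop of histone messenger RNAs, was lower in AT2-like cells, at 37.8 and 31.3 CPM (−0.27, −0.45 to −0.10), and in ALMF-like cells, at 57.4 and 39.3 CPM (−0.55, −0.82 to −0.28), without passing the fold in these classes. It was past the fold downwards in immune-like, mesothelial-like, and peribronchial fibroblast and airway smooth muscle-like cells.

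The types of histone differed in how the mice compared. In AT2-like cells all H1 genes summed had a log2 ratio of 1.26 (1.21 to 1.31), H4 of 0.87 (0.77 to 0.96) and H3 of 0.35 (0.33 to 0.37), while H2A was at −0.04 (−0.07 to −0.02) and H2B at 0.00 (−0.17 to 0.17). Such sums follow their most abundant genes, *H2afj* for H2A and *H3f3b* for H3. By genes, 6 of 7 measured H1, 3 of 5 H4, 2 of 6 H3, 2 of 13 H2A and 1 of 4 H2B genes were past the fold upwards. H4 did not stand apart from H3 in each class, since in DMF-like cells they were at 0.50 (0.31 to 0.69) and 0.44 (0.40 to 0.48) and in mesothelial-like cells at 0.15 (−0.22 to 0.53) and 0.15 (0.06 to 0.24). Of 35 histone genes measured in AT2-like cells, 14 were past the fold upwards and 0 downwards, with a median log2 ratio of 0.41, beside 5.39% and 4.49% of all measured genes. In ALMF-like cells 7 of 25 were past the fold upwards and 0 downwards, beside 7.89% and 6.93% of all measured genes. In DMF-like cells 5 of 22 were past it upwards and 1 downwards, the DNA damage-related variant *H2afx*, beside 7.84% and 6.80%. The 6 genes are among these counts, and they make up 5, 4 and 3 of the genes past the fold.

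The most abundant histone transcript in each class was that of a replication-independent variant. *H3f3b*, which encodes H3.3, was at 1679 and 2278 CPM in AT2-like cells (log2 ratio 0.44, 0.42 to 0.46), and its interval lay above 0 in 12 of 12 classes. Its median log2 ratio over the classes was 0.51, as was that of *H1f0*, and in alveolar fibroblast-like cells it was past the fold (0.61, 0.53 to 0.69) where *H1f0* was not. *H3f3a*, which encodes the same protein, was at 573 and 575 CPM (log2 ratio 0.00, −0.04 to 0.05). *H2afj*, the main H2A transcript of AT2-like cells, was at 902 and 838 CPM (−0.11, −0.14 to −0.07), and *H2afz* at 328 and 333 CPM (0.02, −0.04 to 0.08). *H2afv* at −0.05 and *H2afy* at −0.08 were as near to 0.

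*Hist1h4d*, a clustered H4 gene, was the other abundant histone gene that differed as the linker genes did. It was at 38.5 and 89.2 CPM in AT2-like cells (log2 ratio 1.21, 1.07 to 1.36), and past the fold upwards in 10 of 11 classes. *Hist1h1b* was at 1.43 and 6.71 CPM in AT2-like cells (21 and 112 UMIs, log2 ratio 2.23, 1.55 to 2.98), but at 135 and 52.9 CPM in mesothelial-like cells (log2 ratio −1.36, −1.86 to −0.88). *Hist1h2ae*, a clustered H2A gene, was at −0.09 (−0.39 to 0.22) in AT2-like cells and at −3.23 (−4.72 to −2.04) in mesothelial-like cells. Over all kept cells 8 of 67 measured histone genes were past the fold upwards and 19 downwards, with a median log2 ratio of −0.23, beside 6.09% and 10.6% of all measured genes. That count mixes classes, and within classes the family had 13 genes up and 5 down of 57 in immune-like (7.87% and 7.70% of all measured genes), 23 and 3 of 55 in red cell-like (45.7% and 2.48%), and 3 and 7 of 20 in mesothelial-like cells (8.79% and 7.41%). Over all kept cells the 10 proliferation genes were all past the fold downwards, with a median of −1.06 and a summed level of 152 and 75.2 CPM, and 5 of 20 S-phase genes, with a median of −0.47, and their part in the downward counts was not tested.

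The genes whose pattern over 24 points (12 classes in each library) was most like that of the 6 genes summed were *Hist1h4c* (Pearson r of 0.93 on log2 of CPM plus 1), *Hist1h4d* (0.89), *Pabpc1* (0.85), *Hist1h3e* (0.83) and *Rnaseh2a* (0.83), out of 8510 genes with enough UMIs. The 24 points share their 2 libraries and are dominated by the high immune-like and red cell-like levels. *Hist1h4c*, a clustered H4 gene, was at 10.9 and 24.7 CPM in AT2-like cells (log2 ratio 1.18, 0.92 to 1.46), and at 1.03 (ALMF-like) and 1.05 (DMF-like cells). *Hist1h3e*, a clustered H3 gene, was at 17.7 and 36.3 CPM in AT2-like cells (log2 ratio 1.03, 0.82 to 1.25), but at 0.18 (−0.44 to 0.82) in DMF-like cells. *Pabpc1*, which encodes a cytoplasmic poly(A)-binding protein, had log2 ratios of 0.82 in AT2-like, 0.42 (ALMF-like) and 0.58 (DMF-like cells).

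Among themselves, 4 of the 6 genes formed a group, while *H1f0* and *Hist1h2bc* stood apart from most of it and from each other. Over the same 24 points *Hist1h1e* had an r of 0.93 with *Hist2h2ac*, 0.92 with *Hist1h1c* and 0.73 with *Hist1h1d*. *H1f0* had an r of 0.04 with *Hist1h1e*, −0.10 with *Hist1h1c* and −0.29 with *Hist1h1d*. *Hist1h2bc* had an r of 0.09 with *Hist1h1e*, 0.50 with *Hist1h1d* and −0.37 with *H1f0*. *H1f0* therefore shared a higher level in the *Gli1 HHIPCKO* library with *Hist1h1c* and *Hist1h1e* but not their order of classes.

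The genome places 4 of the 6 genes on chromosome 13 in the large histone cluster (GRCm38, GENCODE vM21). *Hist1h1d* (ENSMUSG00000052565) lies at chr13:23553262-23560686 on the plus strand, *Hist1h1e* (ENSMUSG00000051627) at chr13:23620629-23622558 on the minus strand, *Hist1h2bc* (ENSMUSG00000018102) at chr13:23684199-23692908 on the plus strand and *Hist1h1c* (ENSMUSG00000036181) at chr13:23738808-23740367 on the plus strand. They span 187106 bases that hold 23 annotated genes, 15 of them histone genes. *Hist2h2ac* (ENSMUSG00000068855) lies at chr3:96220361-96220880 on the minus strand and *H1f0* (ENSMUSG00000096210) at chr15:79028450-79030504 on the plus strand. *Hist1h2bc* lies between *Hist1h1e* and *Hist1h1c*, and is the only gene of the 6 annotated with 2 exons, the others having 1.

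The counts of single histone genes carry an uncertainty of their own. Histone genes of a type have nearly the same coding sequence, so reads from there may not be assigned to one gene. *Hist1h1e* overlaps *Hist1h2be* and *Gm11398* on its own strand, and *Hist2h2ac* and *H1f0* each overlap 1 gene on the other strand (*Gm44492* and *Gm49544*), all 4 of these named because of the overlap. How many UMIs this moves between genes cannot be read from the deposited counts.

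The start regions are shown for *Hist1h1c*, *Hist1h1e* and *Hist2h2ac*, which were past the fold together in AT2-like, ALMF-like and DMF-like cells, and for *Hist1h1d*, which was past it with them in AT2-like cells and had fewer than 50 UMIs in the others. Promoter sequences were taken from RefSeq (GRCm38.p6), which had an entry for 5 of the 6 genes and none for *Hist1h2bc*, as the 250 bases before the RefSeq start, 5′ to 3′ on the strand of the gene. Capitals mark matches, on either strand, to AAACACA (the H1 box), CCAAT (the CCAAT box of many promoters), TATAAA (the TATA box) and ATTTGCAT (the octamer), which occur in 6.25%, 33.8%, 12.4% and 1.60% of the same 250 bases of all 32851 promoters of the table. The windows are chr13:23738557-23738806 (plus strand) for *Hist1h1c*, chr13:23622559-23622808 (minus strand) for *Hist1h1e*, chr13:23554782-23555031 (plus strand) for *Hist1h1d* and chr3:96220881-96221130 (minus strand) for *Hist2h2ac*.
Hist1h1c: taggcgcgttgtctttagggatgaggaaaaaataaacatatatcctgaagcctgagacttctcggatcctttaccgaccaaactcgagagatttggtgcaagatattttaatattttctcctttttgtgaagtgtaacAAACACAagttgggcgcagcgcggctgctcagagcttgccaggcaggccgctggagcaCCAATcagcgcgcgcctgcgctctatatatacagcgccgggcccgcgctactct
Hist1h1e: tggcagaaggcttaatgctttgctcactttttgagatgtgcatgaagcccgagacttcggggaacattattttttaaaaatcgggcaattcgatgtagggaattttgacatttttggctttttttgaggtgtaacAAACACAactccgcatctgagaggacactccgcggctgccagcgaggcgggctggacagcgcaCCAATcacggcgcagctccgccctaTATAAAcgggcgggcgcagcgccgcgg
Hist1h1d: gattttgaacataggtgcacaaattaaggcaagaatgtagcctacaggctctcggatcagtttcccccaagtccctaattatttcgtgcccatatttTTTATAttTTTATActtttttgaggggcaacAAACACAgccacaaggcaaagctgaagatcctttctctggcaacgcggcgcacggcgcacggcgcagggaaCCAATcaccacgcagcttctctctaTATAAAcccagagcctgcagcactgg
Hist2h2ac: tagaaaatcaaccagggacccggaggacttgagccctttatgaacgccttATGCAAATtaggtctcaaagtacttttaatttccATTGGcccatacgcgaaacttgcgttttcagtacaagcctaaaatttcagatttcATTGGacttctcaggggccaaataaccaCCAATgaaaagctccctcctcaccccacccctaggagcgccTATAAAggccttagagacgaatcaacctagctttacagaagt

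The H1 box was found once in each of *Hist1h1c*, *Hist1h1e* and *Hist1h1d*, with its first base 112, 115 and 122 bases before the start, and each of these promoters also had 1 CCAAT, with its first base 54, 52 and 51 bases before the start. TATAAA lay 27 bases before the start in *Hist1h1e* and 26 in *Hist1h1d*, where 2 more matches on the other strand began 153 and 145 bases before it, and *Hist1h1c* had no match to these letters. *Hist2h2ac* had no H1 box, and had 3 CCAAT matches, TATAAA from 42 bases before the start, and 1 octamer on the other strand. The window of *H1f0* (chr15:79027962-79028211, plus strand) had none of the 4 motifs and a G+C content of 74.4%, against 44.8% to 52.4% in the windows of the other 4 genes. The *H1f0* window ends before the GENCODE start of the gene at 79028450. The bases between were not searched, so a motif nearer to that start would be missed. The window of *Hist1h1d* lies inside the GENCODE span of that gene, so the RefSeq and GENCODE starts differ there too. Over the whole family, AAACACA was found in 5 of 11 H1 promoters, 2 of 42 H2A, 2 of 16 H2B, 1 of 13 H3 and 0 of 12 H4 promoters. These matches describe the letters in the window only.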

How the data were processed

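The deposited counts are UMI matrices made by the authors with Cell Ranger (6.1.0 by the matrix header, 3.1.0 by the sample labels), and no other values were used. The 6 genes and the gene lists were chosen with earlier results of these data known. A gene outside them is named only if it is among the 10 other histone genes with the most UMIs, is in a list, is among the 5 genes most like the sum, or overlaps a gene described. Cells with 200 to 6000 genes and no more than 10% of mitochondrial UMIs passed, were scaled to 10000 UMIs, and clustered on 2000 variable genes, 30 components and 20 neighbours (Leiden, resolution 1), stromal cells a second time, with 125 genes held out. Clusters were named from markers of 18 classes, with naming thresholds set after the clusters were seen. Scripts ran on Python 3.11.15 with leidenalg 0.10.2, python-igraph 0.11.9, scikit-learn 1.9.0, scipy 1.17.1, numpy 2.4.6, matplotlib 3.10.9 and pandas 2.3.3. The kit is given as 5′ in the series text and reads as 3′ in the labels. Positions are from GENCODE M21.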

Additional observations from a re-analysis of the deposited data

Results flagged for a closer look

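*Hist1h2bc* was higher in the *Gli1 HHIPCKO* mouse in cluster 8, led by *Acta2*, *Prss23* and *Map3k7cl* (19 and 44 UMIs, log2 ratio 1.205), and lower in mesothelial-like cells (168 and 68 UMIs, log2 ratio −0.949). The intervals, 0.40 to 2.06 and −1.38 to −0.53, do not overlap. The difference between these cells was not tested.

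*Hist1h1d* was higher in AT2-like cells (79 and 219 UMIs, log2 ratio 1.29) and lower in mesothelial-like cells (36 and 14 UMIs, log2 ratio −1.006). The intervals, 0.91 to 1.68 and −2.01 to −0.08, do not overlap. This difference was not tested either.

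Cells of clusters without a name, 1796 from the control and 2307 from the *Gli1 HHIPCKO* mouse, held 3412 and 10480 UMIs of the 6 genes, a log2 ratio of 1.058 (1.00 to 1.11). They take no part in the counts over 12 classes.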

How the results depend on the processing

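The log2 ratio of the 6 genes summed was computed in other ways for 3 classes (11 settings for AT2-like, 12 for ALMF-like, and again 11 where cells were DMF-like), and ran from 0.94 to 1.28 with no change of sign. In AT2-like cells it stayed between 1.22 and 1.28.

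With each library clustered on its own, 998 control and 361 *Gli1 HHIPCKO* cells were ALMF-like. In these, 11 histone genes were past the fold upwards (main count 7), and the sum was at 1.088 (main value 1.01). With doublets left out it was at 1.159, from 1049 control and 48 *Gli1 HHIPCKO* cells, and 9 genes were past the fold in DMF-like cells (main count 5). With clusters mostly of 1 library left out it was at 1.089, and DMF-like cells gave no value because too few were left. With no gene held out of clustering the DMF-like sum was at 1.053 (main value 0.96), and with cells thinned to 2000 UMIs at 1.069. At resolution 0.5, 10 genes were past the fold in DMF-like cells. The cause of these shifts was not tested.

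A minimum of 20 UMIs admits more genes, and gave 13 for ALMF-like cells and 9 for DMF-like cells. A minimum of 200 UMIs admits fewer, and gave 3 in DMF-like cells. Pooling ALMF-like and DMF-like cells, an alternative chosen after the data were seen, gave 12. The share of all measured genes past the fold was not computed in these other settings. The counts of histone genes in them are therefore not read as more or fewer genes differing.

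*H1f0* in DMF-like cells, 0.47 in the main analysis and short of the fold, was past it in 5 of the other ways, up to 0.71 with both myofibroblast classes pooled.

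No paired analysis was possible because each group is 1 mouse, with 1 lane each. Mouse, sex, lane and treatment therefore cannot be separated, and tamoxifen itself was given to 1 mouse only. The intervals leave out variation between mice. ALMF-like and DMF-like cells split by library into clusters of their own in the second round of clustering. Free RNA was not removed from the counts.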

Other observations

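*Hist1h4d* over all kept cells had a log2 ratio of 0.84, and *H2afx* one of −0.88. In red cell-like cells 14 of 15 measured S-phase genes were past the fold upwards, with a summed level of 818 and 1467 CPM, beside 45.7% of all measured genes in a class with a median log2 ratio of 0.54, in which the cluster led by *Rhd* and *Rrm2* held 33 of 248 control and 53 of 235 *Gli1 HHIPCKO* cells. Of the 6 sex-linked genes, *Xist* and *Tsix* were past the fold upwards and *Ddx3y*, *Eif2s3y*, *Kdm5d* and *Uty* downwards over all kept cells.

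Alveolar fibroblast-like cells numbered 471 in the control and 1609 in the *Gli1 HHIPCKO* library, and immune-like cells 611 and 240. With 1 lane of sorted cells per mouse, these numbers are not a measure of the lung.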
